A study of Mus musculus with 7 samples.

Results

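The 9 genes described here are 6 glutathione peroxidases (Gpx1, Gpx2, Gpx3, Gpx4, Gpx7 and Gpx8) and 3 genes that act on membrane lipids or lipid radicals in ferroptosis (Acsl4, Lpcat3 and Aifm2). They were chosen by name, and each matched 1 of the 38293 genes listed in the count table. The study examined what a diet low in cystine does to the intestine. Its RNA sequencing of the small intestine looked for the cause of the increased proliferation reported there. Male C57BL/6NRJ mice, 8 weeks old and housed individually, were acclimatized for 1 week on the AIN93-G control diet and were then fed for 2 weeks. The control diet was high in fat, which gave 40% of the energy, and low in calcium. The normal cys group (n = 4) stayed on that diet, with 0.38% cystine, and the low cys group (n = 3) received the same diet with 0.08% cystine, in which alanine took the place of the added L-cystine. All mice were fasted for 4 h before tissue was taken. RNA came from ileal scrapings that leave the muscle layer behind and mix cells of the lamina propria with those of the epithelium. A change in cell numbers and a change in RNA per cell therefore cannot be told apart in these bulk libraries. The libraries are named here by diet and mouse, normal cys 1 to 4 and low cys 1 to 3, and these numbers carry no order or pairing.

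Many glutathione peroxidases reduce hydrogen peroxide and organic hydroperoxides with glutathione, a tripeptide that contains cysteine. Gpx1 is the widespread cytosolic enzyme, Gpx2 the epithelial enzyme of the gastrointestinal tract, Gpx3 the secreted enzyme of plasma, and Gpx7 and Gpx8 are enzymes of the endoplasmic reticulum. Gpx4 reduces hydroperoxides of phospholipids within membranes, and its loss leads to ferroptosis, an iron-dependent cell death driven by lipid peroxidation. Acsl4 activates long polyunsaturated fatty acids, Lpcat3 places them into phospholipids, and Aifm2 (also called FSP1) holds back lipid peroxidation through coenzyme Q, independently of glutathione.

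The normal cys libraries held 19712355, 21410743, 21140505 and 22412703 counts, and the low cys libraries 21942518, 15708368 and 14888760. Of the 9 genes, 8 passed the filter on low counts and were tested among 14869 genes with edgeR's quasi-likelihood test. The remaining gene, Gpx8, had 1 to 7 counts per library. None of the 8 had an adjusted p under 0.05, and neither did any other gene (0% of the genes tested, smallest adjusted p 0.291). At an unadjusted p under 0.05 there was 1 of the 8, Acsl4, against 817 genes or 5.49% of all genes tested, 396 with a higher and 421 with a lower estimate. DESeq2 gave the same 0 members at an adjusted p under 0.05, with 16 of 22778 genes in all (1024 or 4.50% unadjusted), and limma-voom also found 0 members and 0 genes (930 or 6.25% unadjusted). The diets separated without overlap in 0 of the 8, and in 6.83% of all genes tested. The estimates of 4 members were higher and those of 4 lower on the low cys diet, where the higher count includes Gpx1, whose sign turned with DESeq2's size factors, with a median log2 fold change of -0.12, beside 51.2% of genes higher and a median of 0.0072 over all genes tested. The biological coefficient of variation over all genes was 25.5%.

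The tissue label was checked against marker genes. Fabp2, the intestinal fatty acid binding protein of enterocytes, had the highest mean CPM of the 8 enterocyte markers over the 7 libraries, although Anpep, an aminopeptidase noted after its values were seen, was above it in normal cys 1 and 2 and low cys 1 and 2. The level of Fabp2 was 14484 ± 5591 CPM (counts scaled to library size with TMM; SD, n = 4) on the normal and 7539 ± 3966 CPM (SD, n = 3) on the low cys diet. Fabp6, the bile acid binding protein of ileal enterocytes, had 5388 ± 1451 CPM (SD, n = 4) and 4026 ± 1322 CPM (SD, n = 3). Slc10a2, the ileal bile acid transporter, was present at 274 ± 70.6 CPM (SD, n = 4) and 315 ± 85.3 CPM (SD, n = 3). Markers of muscle were low apart from Mylk, which non-muscle cells also express and which made up 94.1% of the summed CPM of that list.

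Per length, the 9 genes fell into an abundant and a scarce set. In RPKM (CPM per kilobase of exon), the mean over the 7 libraries was 447 for Gpx2, 145 for Gpx4, 125 for Lpcat3 and 119 for Gpx1. The next gene in the order was Gpx3 at 2.55 RPKM, followed by Aifm2 at 2.16, Gpx7 at 0.614, Acsl4 at 0.582 and Gpx8 at 0.167. Gpx4 (85.9 to 218 RPKM), Lpcat3 (81.9 to 164 RPKM) and Gpx1 (63.1 to 160 RPKM) overlapped in their ranges over the libraries. The same held for Gpx3 and Aifm2 and for Gpx7 and Acsl4. Gpx2 ranged from 139 to 814 RPKM, and in 6 of the 7 libraries it was the highest of the 9.

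**Figure D1:**
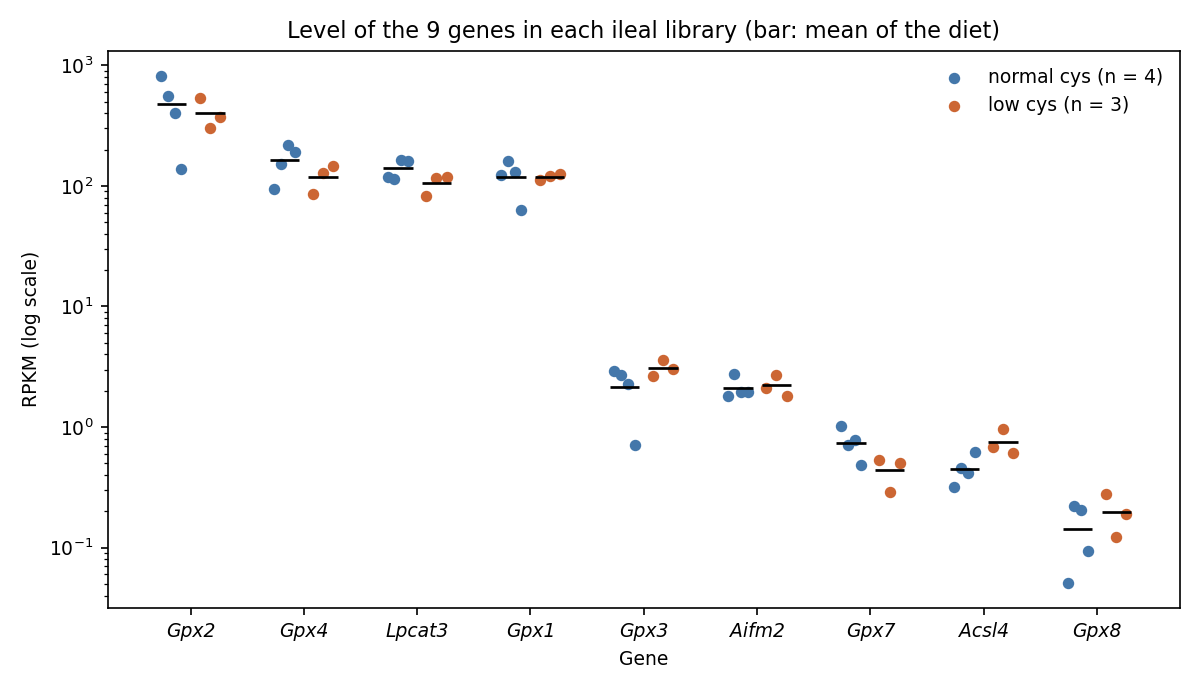
Level of each of the 9 genes (x axis) in RPKM on a log axis (y axis), with 1 point per library, normal cys (n = 4) in blue and low cys (n = 3) in orange, and a black bar at the mean of each diet. Gpx2, Gpx4, Lpcat3 and Gpx1 lie above 60 RPKM in every library and the other 5 genes below 4 RPKM, and the points of the diets overlap for each gene.

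Gpx2, the gastrointestinal peroxidase, varied more between mice than between diets. On the normal cys diet its level was 869 CPM in mouse 1, 596 in mouse 2, 428 in mouse 3 and 148 in mouse 4. On the low cys diet it was 575, 321 and 398 CPM in mice 1, 2 and 3. The low cys values all lay inside the normal cys range, whose highest library was 5.88 times its lowest. The coefficient of variation of Gpx2 among the normal cys mice was 59.2%, and 8.05% of all genes tested had a larger one (median over all genes 21.6%). The diet means were 510.4 ± 302 CPM (SD, n = 4) and 431 ± 130.2 CPM (SD, n = 3). This gave a log2 fold change of -0.24 (standard error 0.50, 95% interval -1.39 to 0.91, edgeR adjusted p = 0.901). The interval spans folds from 0.381 to 1.88. With limma-voom the estimate was -0.036, and with total counts in place of TMM it was -0.10. Without normal cys 1 the log2 fold change was 0.14, and without normal cys 4 it was -0.55, so the sign of the estimate depended on which normal cys mouse was included.

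Gpx4, the membrane phospholipid peroxidase, had 159 CPM in normal cys 1, 255 in normal cys 2, 365 in normal cys 3 and 321.5 in normal cys 4. Its low cys values were 144, 213 and 243.5 CPM. Low cys 1 was the lowest of the 7 libraries, the other low cys libraries lay between normal cys 1 and normal cys 2, and the diets overlapped through normal cys 1 alone. Each of the 3 low cys values was below the normal cys mean. The ratio of the means was 0.727, and edgeR estimated -0.46 as log2 fold change (standard error 0.29, 95% interval -1.11 to 0.19, edgeR adjusted p = 0.794). An exact two-sided permutation test, in which the libraries can be divided in 35 ways, gave p = 0.257, where the smallest value possible is 0.0286. With normal cys 1 left out, the log2 fold change was -0.65 (edgeR adjusted p = 0.381) and the diets no longer overlapped, as for 18.0% of all genes under that setting. The estimate was -0.26 without low cys 1 and -0.29 without normal cys 3.

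Gpx1, the widespread cytosolic peroxidase, had 127, 166, 135 and 65.7 CPM in the normal cys mice 1 to 4 and 115.5, 126 and 131 CPM in the low cys mice 1 to 3. The low cys mice were close together, and normal cys 4 was the lowest of all. The diet means, 124 ± 42.1 CPM (SD, n = 4) and 124 ± 7.75 CPM (SD, n = 3), differed by less than their spread. The log2 fold change was 0.0036 (standard error 0.26, 95% interval -0.59 to 0.60, edgeR adjusted p = 0.998), and its sign turned with DESeq2's size factors (-0.0018). Without normal cys 4 the estimate was -0.21, and without normal cys 2 it was 0.20.

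Gpx3, the secreted peroxidase, was present at 5.27, 4.90, 4.10 and 1.29 CPM in the normal cys mice and at 4.81, 6.49 and 5.47 CPM in the low cys mice, from 27 to 118 counts per library. The lowest value was again that of normal cys 4. Every low cys value was above the normal cys mean, and the ranges overlapped through normal cys 1 and 2. Its log2 fold change was 0.52 (standard error 0.41, 95% interval -0.41 to 1.45, edgeR adjusted p = 0.802). Without normal cys 4 the estimate was 0.23.

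The peroxidases of the endoplasmic reticulum were scarce. Gpx7 had 25, 20, 19 and 13 counts in the normal cys libraries and 17, 6 and 10 counts in the low cys libraries. In CPM this was 1.31, 0.908, 0.998 and 0.621 against 0.693, 0.375 and 0.644, so the diets overlapped through normal cys 4. The log2 fold change was estimated as -0.72 (standard error 0.42, 95% interval -1.66 to 0.22, edgeR adjusted p = 0.794). Gpx8 had 1, 5, 4 and 2 counts in the normal cys libraries and 7, 2 and 3 in the low cys libraries. These counts are too low for a precise comparison (exact permutation test, two-sided, p = 0.429). Of the other family genes, Gpx5 had 1 count and Gpx6 had 2 counts over all 7 libraries.

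The make-up of the family differed between mice. Of the summed RPKM of the 6 peroxidases, Gpx2 took 78.6% in normal cys 1, 63.9% in normal cys 2, 53.3% in normal cys 3 and 35.1% in normal cys 4. In the low cys libraries its share was 72.9%, 54.4% and 57.6%. The Gpx4 share was highest where the Gpx2 share was lowest, with 9.17%, 17.4%, 29.0% and 48.6% in the normal cys libraries and 11.6% in low cys 1 and 22.4% in low cys 3, with low cys 2 close to the latter. The ratio of Gpx2 to Gpx4 per length was therefore 8.58 in normal cys 1 and 0.722 in normal cys 4, an 11.9-fold span within 1 diet. The low cys ratios, 6.28, 2.37 and 2.57, lay within it (exact permutation test of the log2 ratio, two-sided, p = 0.714). The share of Gpx1 stayed between 11.8% and 21.8%. The summed level was 764 ± 272 RPKM (SD, n = 4) on the normal and 646.5 ± 93.4 RPKM (SD, n = 3) on the low cys diet (exact permutation test of the log2 sum, two-sided, p = 0.686).

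The shares of Gpx3 and Gpx7 differed between the diets without overlap, and those of Gpx1, Gpx2, Gpx4 and Gpx8 overlapped. Gpx3 held 0.281%, 0.309%, 0.300% and 0.180% in the normal cys libraries and 0.359%, 0.649% and 0.466% in the low cys libraries (exact permutation test, two-sided, p = 0.0286, the smallest value possible). Gpx7 held 0.0978%, 0.0805%, 0.103% and 0.122% against 0.0728%, 0.0526% and 0.0771% (exact permutation test, two-sided, p = 0.0571). These are 2 of 6 shares tested, without correction, and a share also moves with the abundant Gpx2 and Gpx4 in its denominator. The exact tests of the shares of Gpx1, Gpx2, Gpx4 and Gpx8 gave p-values of 0.314 or more. On the CPM scale neither Gpx3 nor Gpx7 separated the diets, where 6.83% of all genes tested did. The Gpx7 share rests on 6 to 25 counts per library.

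**Figure D2:**
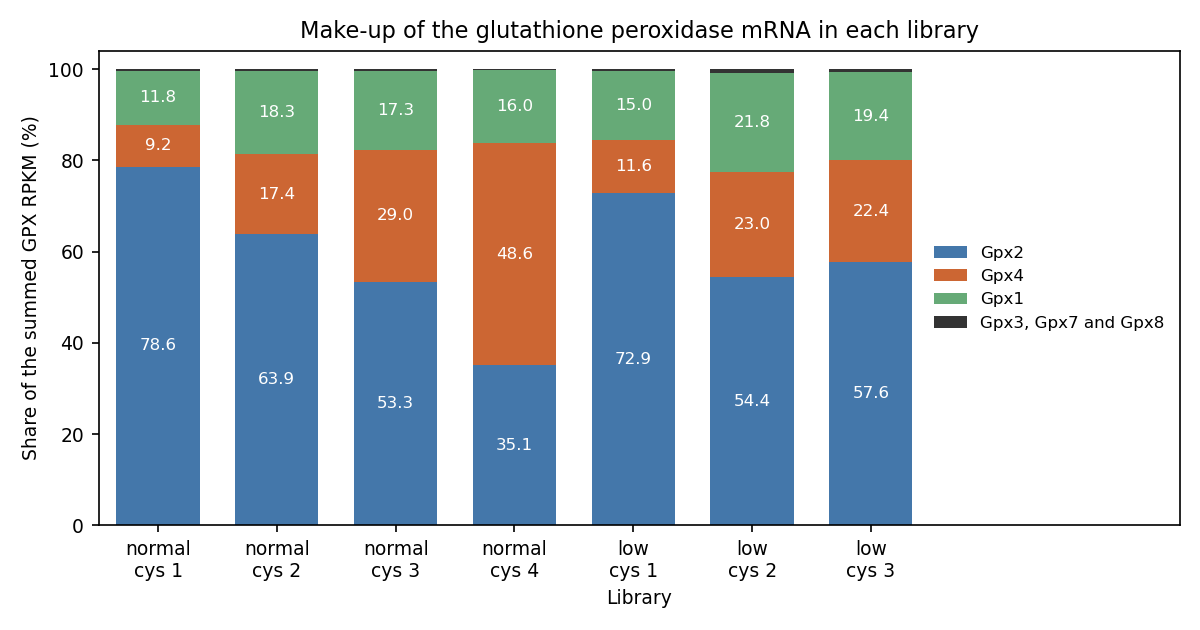
Share of each peroxidase in the summed RPKM of the 6 glutathione peroxidases (y axis, %, from 0) in each of the 7 libraries (x axis), with the values of Gpx2, Gpx4 and Gpx1 written in the bars. The Gpx2 share runs from 35.1% to 78.6% and the Gpx4 share from 9.17% to 48.6%, both extremes within the normal cys diet.

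Acsl4, which activates polyunsaturated fatty acids for the synthesis of phospholipids, was scarce in all libraries. It had 1.72, 2.45, 2.26 and 3.34 CPM in the normal cys mice, from 33 to 70 counts, and 3.71, 5.25 and 3.28 CPM in the low cys mice, from 51 to 91 counts. All 3 low cys values were above the normal cys mean, and the diets overlapped because normal cys 4 lay just above low cys 3. The means were 2.44 ± 0.673 CPM (SD, n = 4) and 4.08 ± 1.03 CPM (SD, n = 3). Its log2 fold change of 0.73 (standard error 0.30, 95% interval 0.062 to 1.41) was the only one of the 8 whose interval left out 0, with an edgeR adjusted p of 0.794. The exact permutation test, two-sided, gave p = 0.0857. When libraries were left out in turn, its unadjusted p stayed under 0.05 in 2 of 7 cases, without normal cys 4 (log2 fold change 0.92) or without low cys 3 (0.86). It did not without normal cys 1 (0.60), normal cys 2 (0.75), normal cys 3 (0.70), low cys 1 (0.81) or low cys 2 (0.54).

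Lpcat3, the acyltransferase that places polyunsaturated fatty acids into phospholipids, had 384, 376, 536 and 529 CPM in the normal cys mice and 268, 381 and 388 CPM in the low cys mice. Normal cys 3 and 4 were the highest and low cys 1 the lowest, while the other 4 libraries were close to each other. The means were 456 ± 88.05 CPM (SD, n = 4) and 345.5 ± 67.6 CPM (SD, n = 3). The log2 fold change was -0.40 (standard error 0.20, 95% interval -0.85 to 0.051, edgeR adjusted p = 0.794), and without low cys 1 it was -0.24. Part of the Lpcat3 gene overlaps Emg1 on the opposite strand, which 8.39% of its 50-base stretches match. Emg1 itself had 451 to 1070 counts per library and a log2 fold change of 0.14 (standard error 0.26, edgeR adjusted p = 0.890), and the strand setting of the counting is not given in the sources used here.

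Aifm2, the coenzyme Q reductase, varied least between libraries among the scarce genes. Its level was 7.47, 11.4, 8.09 and 8.07 CPM in the normal cys mice and 8.73, 11.2 and 7.41 CPM in the low cys mice. The ranges of the diets overlapped, with low cys 3 the lowest and normal cys 2 the highest library. The log2 fold change was 0.058 (standard error 0.22, 95% interval -0.44 to 0.55, edgeR adjusted p = 0.948), and it changed sign when normal cys 1 (-0.0098) or low cys 2 (-0.093) was left out. H2afy2, which overlaps Aifm2 on the opposite strand, had at most 17 counts in a library.

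**Figure D3:**
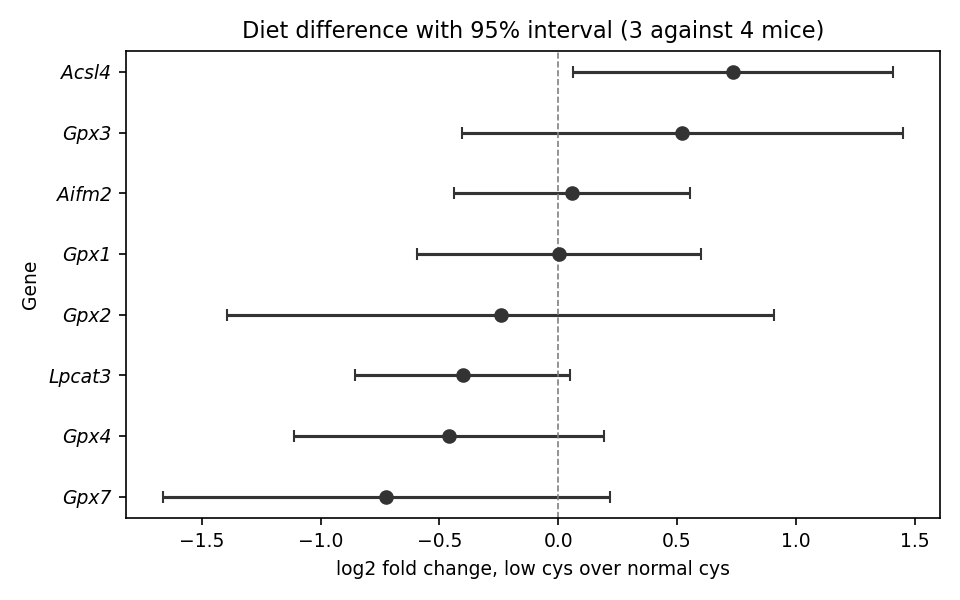
Log2 fold change of low cys over normal cys (x axis) for the 8 genes tested (y axis), as points with 95% intervals from edgeR over 3 against 4 mice, with a dashed line at 0. The estimates run from -0.72 for Gpx7 to 0.73 for Acsl4, and the interval lies to one side of 0 for Acsl4 alone.

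Members were also compared with each other over the 7 libraries of both diets. The 28 pairs share the same libraries and scaling factors, and their correlations of log2 CPM are given as descriptions. Gpx4 and Lpcat3 were high and low in the same mice (Pearson r = 0.884, Spearman rho = 0.750, n = 7), also without the 2 libraries farthest from the median of Gpx4 (r = 0.930, n = 5). Gpx7 and Acsl4 ran in opposite directions (r = -0.982, rho = -0.893, n = 7), with r = -0.923 without the 2 libraries farthest from the median of Gpx7. Gpx1 and Gpx3 had r = 0.865 but rho = 0.214 (n = 7), and r = -0.216 without normal cys 2 and normal cys 4. That relation rested on these libraries, and normal cys 4 was the lowest in both genes. Gpx2 and Gpx4 had r = -0.606 and rho = -0.393 (n = 7), and r = -0.256 without normal cys 1 and normal cys 4, the extremes of Gpx2.

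Each member tested was also set beside the summed CPM of 20 lists. Only a part of the 160 member and list pairs is given. Markers of cell types were among the lists that moved with these differences between mice, but not the only ones. Gpx4 also followed the sums of defence independent of Gpx4 (r = 0.940), the iron pool (r = 0.861) and glutathione supply (r = 0.832), described below. With the T cell sum it had r = -0.114. Lpcat3 followed the sum of the other selenoproteins (r = 0.901). The 8 enterocyte markers summed to 36057, 36486, 53899 and 49805 CPM in the normal cys mice and 20144, 34940 and 36189 CPM in the low cys mice, with Fabp2 the highest by mean CPM over the 7 libraries and none at 0. Their log2 sum followed Lpcat3 (r = 0.986, rho = 0.786, n = 7) and Gpx4 (r = 0.876, rho = 0.964, n = 7). The summed fibroblast list also followed Gpx4 (r = 0.956, rho = 0.964, n = 7) and Lpcat3 (r = 0.853, rho = 0.857, n = 7). Fbln1 makes up 77.1% of that sum and had a lower estimate on the low cys diet, while the other 7 fibroblast markers tested had higher ones. The sum therefore does not stand for the list. All 8 enterocyte markers had lower estimates on the low cys diet, with a median log2 fold change of -0.36, and 0 of 8 had an unadjusted p under 0.05. The 8 crypt stem and proliferation markers summed to 310, 214, 127 and 119 CPM in the normal cys mice and 351, 193 and 311 CPM in the low cys mice, with Mki67 the highest by mean CPM and none at 0. Their log2 sum ran against Gpx4 (r = -0.866, rho = -0.786, n = 7) and Lpcat3 (r = -0.867, rho = -0.643, n = 7), and with Gpx2 at r = 0.697 (rho = 0.536, n = 7), or r = 0.321 without normal cys 1 and 4 (n = 5). All 8 crypt markers had higher estimates on the low cys diet (median 0.66), again with 0 of 8 at an unadjusted p under 0.05. The 6 Paneth cell markers, with Lyz1 the highest by mean CPM and none at 0, summed to 4638, 2386, 2321 and 701 CPM and to 4804, 2808 and 5069 CPM. They followed Gpx2 with r = 0.806 but rho = 0.321 (n = 7), and with r = 0.052 when normal cys 1 and 4 were left out. All 6 Paneth cell markers had higher estimates on the low cys diet (median 0.75), with 0 at an unadjusted p under 0.05. The part of these cell types in the levels of Gpx2, Gpx4 and Lpcat3 was not tested.

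Normal cys 4, the library with the lowest Gpx1, Gpx2 and Gpx3, also stood at the end of other lists, which were chosen for this paragraph after their values were seen. Its 7 macrophage markers, of which Lyz2 was the most abundant and none was at 0, summed to 22.6 CPM, against 68.8 to 88.0 CPM in the other normal cys mice and 85.2 to 94.7 CPM in the low cys mice. It was also the lowest library in the Paneth sum and in the sum of the B and plasma cell markers (384 CPM). Over the 7 libraries the macrophage sum and Gpx3 had r = 0.976 (rho = 0.643, n = 7), and r = 0.822 without normal cys 4 and low cys 2 (n = 5). Gpx3 also followed the B and plasma cell sum (r = 0.909, rho = 0.893, n = 7, and 0.643 without these libraries) and the Paneth sum (r = 0.874, rho = 0.643, n = 7, and 0.734). Normal cys 4 was the highest library in the goblet cell sum (17699 CPM) and the ileal enterocyte sum (8081 CPM). Not every gene of these lists went that way. Among the goblet cell markers, Muc2, Tff3, Fcgbp and Zg16 were highest there. Clca1 (2.82 CPM) and Spink4 (84.0 CPM) were at their lowest there, and Agr2 was highest in normal cys 1. Fabp6 makes up 92% of the ileal sum, and Slc10a2 was higher in low cys 2 (388 CPM) than in normal cys 4 (354 CPM). The goblet cell sum ran against Gpx3 (r = -0.932, rho = -0.714, n = 7), with r = 0.021 without normal cys 4 and low cys 2. Whether these cells contributed to the Gpx values of that library was not tested.

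The other marker lists were looked at in the same way. Higher estimates on the low cys diet were found in all 7 smooth muscle markers (median log2 fold change 1.44, 2 with an unadjusted p under 0.05), in 7 of 8 fibroblast markers (0.92, 3 with Dcn, Col3a1 and Col6a1, and Fbln1 lower at -0.75), in all 6 endothelial markers (0.72, 0) and in all 7 macrophage markers (0.50, 0). Over all genes tested, 51.2% had higher estimates and 5.49% an unadjusted p under 0.05. The diets did not overlap in Dcn, Col3a1 and Col6a1, where 6.83% of all genes tested did not overlap. In the muscle list low cys 2 had the highest value of every gene, such as 5.62 CPM of Actg2 and 6.81 CPM of Des, while low cys 1, at 0.408 and 1.55 CPM, lay inside the normal cys range of both. The summed CPM overlapped between the diets except for the endothelial list, led by Lyve1, where every low cys library was above the normal cys libraries. Of 5 tuft cell markers 0 were higher (-0.50, with Avil lower at an unadjusted p under 0.05), of 7 goblet cell markers 3 (-0.28), of 7 T cell markers 1 (-0.25), of 6 enteroendocrine markers 3 (-0.028, with Gcg higher at that level and without overlap), of 7 B and plasma cell markers 4 (0.085, with Jchain likewise) and of 4 erythroid markers 2 (0.068). No gene of these lists had an adjusted p under 0.05 with edgeR.

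Of the 8 genes of glutathione supply, 6 had lower and 2 higher estimates on the low cys diet (median log2 fold change -0.26), and 1 had an unadjusted p under 0.05, against 5.49% of all genes tested. That gene was Ggt1, the brush border enzyme that opens extracellular glutathione, with 656, 757, 886 and 942 CPM in the normal cys mice and 460, 640 and 642.5 CPM in the low cys mice. All low cys values were below the normal cys values, where 6.83% of all genes did not overlap, and the log2 fold change was -0.48 (standard error 0.19, edgeR adjusted p = 0.794). Slc3a2, the shared heavy chain of several amino acid transporters, had 256 ± 44.5 CPM (SD, n = 4) and 209.5 ± 19.4 CPM (SD, n = 3). Its partner in cystine uptake, Slc7a11, which was singled out here for its role after its values were seen, was near 1 CPM on both diets (0.900 ± 0.251, SD, n = 4, and 1.12 ± 0.695, SD, n = 3). Chac1, which degrades glutathione inside cells, was at 12.9 CPM in low cys 1 and between 1.19 and 2.29 CPM in the other 6 libraries, so its log2 fold change of 1.52 (standard error 0.76, edgeR adjusted p = 0.794) rested on 1 mouse.

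Among the lipid substrate and oxidation genes, 18 of 24 were tested, with 11 higher, 7 lower and a median log2 fold change of 0.19. An unadjusted p under 0.05 was reached by 2, both higher, against 5.49% of all genes tested. Lpcat2, a lyso-phospholipid acyltransferase, had 1.00 ± 0.244 CPM (SD, n = 4) and 1.88 ± 0.324 CPM (SD, n = 3), and Far1, which makes fatty alcohols for ether lipids, had 3.10 ± 0.481 CPM (SD, n = 4) and 4.83 ± 1.05 CPM (SD, n = 3). In both, all low cys libraries lay above the normal cys libraries (6.83% of all genes did not overlap), and the edgeR adjusted p was 0.794. Acsl5, the abundant acyl-CoA synthetase of enterocytes, had 1589 ± 358 CPM (SD, n = 4) and 1140 ± 463 CPM (SD, n = 3), with 606 CPM in low cys 1 as its lowest value. Por, an electron donor that can start lipid peroxidation, had 62.8, 111, 180 and 146.5 CPM in the normal cys mice and 45.7, 88.4 and 83.3 CPM in the low cys mice, with overlapping diets (log2 fold change -0.79, standard error 0.36, edgeR adjusted p = 0.794).

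The 15 genes of defence independent of Gpx4 divided into 7 higher and 8 lower, with a median log2 fold change of -0.039. Gch1, the first enzyme of tetrahydrobiopterin synthesis, was the only one with an unadjusted p under 0.05 (5.49% of all genes tested), at 25.5 ± 5.81 CPM (SD, n = 4) and 18.5 ± 1.20 CPM (SD, n = 3), a log2 fold change of -0.46 (standard error 0.19, edgeR adjusted p = 0.794). The ranges overlapped, since normal cys 4 had 19.6 and low cys 3 had 19.9 CPM. Mgst1, a microsomal glutathione transferase and the highest of the list by mean CPM, had 203 ± 39.8 CPM (SD, n = 4) and 219 ± 7.37 CPM (SD, n = 3). Vkorc1l1, a vitamin K reductase, and Coq2, an enzyme of coenzyme Q synthesis, had log2 fold changes of 0.28 (standard error 0.16) and 0.21 (standard error 0.16).

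In the iron pool list, 10 of 17 genes were higher and 7 lower, with a median log2 fold change of 0.0030. Tfrc, the transferrin receptor that brings iron into cells, had 67.5, 62.0, 59.4 and 45.5 CPM in the normal cys mice and 153, 146 and 105.5 CPM in the low cys mice. It was the only gene of the list with an unadjusted p under 0.05 (5.49% of all genes tested) and the only 1 without overlap (6.83%). Its log2 fold change was 1.205 (standard error 0.177, edgeR unadjusted p = 7.58e-05). The edgeR adjusted p of Tfrc was 0.291, the smallest value reached over all genes tested. The ferritin chains Fth1 and Ftl1, which store iron, had log2 fold changes of -0.21 (standard error 0.16) and -0.36 (standard error 0.20). Ncoa4, which delivers ferritin to lysosomes, had -0.42 (standard error 0.19, edgeR adjusted p = 0.794). All 3 overlapped between the diets.

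Gpx1 to Gpx4 are selenoproteins, and the genes of selenocysteine synthesis and the other selenoprotein genes were examined beside them. Of the 9 genes of the selenocysteine machinery, 4 were higher and 5 lower (median log2 fold change -0.054), and 0 had an unadjusted p under 0.05. Sephs2, which makes selenophosphate and is itself a selenoprotein, had 122 ± 15.4 CPM (SD, n = 4) and 112 ± 16.8 CPM (SD, n = 3). Sepsecs, which makes the selenocysteine on its tRNA, and Eefsec, its elongation factor, had log2 fold changes of -0.13 (standard error 0.17) and 0.10 (standard error 0.20). Of 20 selenoprotein genes outside the peroxidases, which again include Sephs2, 15 were matched and 13 tested, with 2 higher and 11 lower (median -0.17). Selenop, the secreted selenium carrier, made up 86.7% of the summed CPM of that list and had 6363 ± 2628 CPM (SD, n = 4) and 4532 ± 671 CPM (SD, n = 3). Msrb1, a methionine sulfoxide reductase, was below the normal cys range in every low cys library, at 36.9, 43.7, 44.4 and 47.0 CPM against 29.9, 36.5 and 34.8 CPM, and was the only one at an unadjusted p under 0.05, beside 5.49% of all genes tested and 6.83% without overlap (log2 fold change -0.35, standard error 0.13, edgeR adjusted p = 0.794).

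For each member tested, the 2 genes of at least 10 CPM with the most similar log2 CPM over the 7 libraries were found by Pearson correlation, out of 8623 or 8624 genes. They were Uqcr11 and Emc10 for Gpx1 (r = 0.980 and 0.9748), Gpx2-ps1 and Gm11599 for Gpx2 (0.993 and 0.988), and Gm2a and Pom121 for Gpx3 (0.988 and 0.986). For Gpx4 they were Pdk2 and Hcfc1r1 (0.999 and 0.993), and for Lpcat3 they were Junb and Il28ra (0.990 and 0.990). The others were Midn and 4930581F22Rik for Gpx7 (0.958 and 0.953), Kdm5a and Tmem65 for Acsl4 (0.939 and 0.931), and Blvra and Dnajc19 for Aifm2 (0.954 and 0.951). High values are found by searching many genes over 7 points, and they carry no statement on function.

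The closest match of Gpx2 is its own pseudogene row. Gpx2-ps1, on chromosome 7 of GRCm38 from 100264944 to 100265246, had 997, 832, 447 and 218 counts in the normal cys libraries and 834, 311 and 390 in the low cys libraries, which was 5.48% to 7.04% of the Gpx2 counts. It aligns over 302 bases with the Gpx2 transcript, 300 of them coding, with 5 differences (98.3% identical). Within these bases, 59.3% of the 50-base stretches, the length of the reads, occur in Gpx2 without a difference. Over the transcript sequence of Gpx2-ps1 the share is 36.8%. Its counts are thus uncertain and may hold reads of Gpx2. Adding them to Gpx2 left the log2 fold change at -0.24. The 30 bases that hold 3 of the 5 differences are given for the transcript strand of both, with the differing bases in capitals, from chr12:76792923-76792952 (minus strand) and chr7:100264944-100264973 (plus strand).
Gpx2: ccTGGgggtgggtaccagcccacctttagt
Gpx2-ps1: ccCTAgggtgggtaccagcccacctttagt

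Reads of Gpx4 can also fit elsewhere, since 34.7% of the 50-base stretches of its transcripts occur in the processed pseudogenes Gpx4-ps2 and AC122253.3. Neither name is found in the count table. The Gpx4 counts are uncertain to that extent, because the handling of reads with several matches is not given in the sources used here. For Gpx1, Gpx3, Gpx7, Gpx8 and Acsl4, 0 of the 50-base stretches occurred in transcripts of another gene on either strand.

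The trait that separates the peroxidases is the codon of the active site, and the coding sequence around it is given to show it. In selenocysteine enzymes a TGA codon, which elsewhere ends translation, is read as selenocysteine. The annotation marks this codon in Gpx1, Gpx2, Gpx3 and Gpx4, while Gpx7 has TGT and Gpx8 has TGC, codons of cysteine, at the aligned place. The 30 coding bases are printed with this codon in capitals, from GRCm38 chr9:108339436-108339465 (plus strand) for Gpx1, chr12:76795244-76795273 (minus) for Gpx2, chr11:54907241-54907270 (plus) for Gpx3, chr10:80054722-80054751 (plus) for Gpx4, chr4:108403418-108403447 (minus) for Gpx7 and chr13:113045649-113045678 (minus) for Gpx8.
Gpx1: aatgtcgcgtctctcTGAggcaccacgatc
Gpx2: aatgtggcgtcactcTGAggaacaactacc
Gpx3: aacgtagccagctacTGAggtctgacagac
Gpx4: aacgtggcctcgcaaTGAggcaaaactgac
Gpx7: aacgtagctagcgaaTGTggcttcacagac
Gpx8: aacgtggctagtgacTGCcgcttcacagac
The selenocysteine genes included the abundant Gpx1, Gpx2 and Gpx4 and the scarce Gpx3, and both cysteine genes were scarce, at most 1.01 RPKM in any library. By diet, the 4 selenocysteine genes had log2 fold changes from -0.46 to 0.52.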

How the data were processed

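Poly(A)-selected stranded RNA libraries of 7 ileal scrapings were sequenced in paired-end reads by the authors. The deposited table holds raw counts per gene, made per the methods and labels with Trim Galore 0.6.5, removal of ribosomal reads, STAR on GRCm38 and featureCounts on the exons of Ensembl release 70, and its length column is the summed exon length. Genes were kept with filterByExpr of edgeR 4.0.16 (minimum count 10, minimum total 15) in R 4.3.3, scaled by TMM and compared by the robust quasi-likelihood test with Benjamini-Hochberg adjustment over all 14869 genes. Log2 CPM used a prior count of 2. The fit was tested on simulated data. Single values were compared by exact two-sided permutation over 35 splits. Alternatives were DESeq2 1.42.0, limma-voom (limma 3.58.1), other scalings and filters, and leaving out each library. Sequences came from GENCODE M21 transcripts on GRCm38. The genes named were taken from the members, in each list the gene with the highest mean CPM and up to 3 with the smallest p, and the 2 genes most like each member. Outside this rule, Gpx5, Anpep, Slc7a11, Agr2, Clca1 and Spink4 were named after their values were seen. So were genes that share sequence or position with a member (such as Emg1 and H2afy2). Members and lists were chosen with earlier results of these data known. The labels give no batch, and separate mice are the replicates.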

Additional observations from a re-analysis of the deposited data

Results flagged for a closer look

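Among 35 values examined in the 4 normal cys libraries (log2 CPM of the 9 genes, summed lists and peroxidase shares), 1 had a library far from the others, where chance gives about 1 in 20, or 1.75 of the 35. The share of Gpx8 in the summed peroxidase RPKM was lowest in normal cys 1, with a gap to its nearest neighbour of 0.836 of the whole range, past the limit of Dixon's test for 4 libraries. That library held 1 count of Gpx8, against 2 to 5 in the others. On log2 CPM the same gene gave 0.326. The low values of normal cys 4 in Gpx3 (0.817) and Gpx1 (0.711) stayed under the limit.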

How the results depend on the processing

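With 3 and 4 mice, the intervals of the members allow differences as large as those in the report, and the genes under 100 counts carry counting error besides. No member had an adjusted p under 0.05 with edgeR, DESeq2 or limma-voom, or with any scaling, filter or library left out. Over all genes, 0 were found by edgeR (817 of 14869 at an unadjusted p under 0.05, 5.49%), 16 by DESeq2 (1024 of 22778, 4.50%, with all 9 members tested) and 0 by limma-voom (930 of 14869, 6.25%), and 0 to 1 with a library left out. No paired analysis was made, because the diets were given to separate mice.

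At an unadjusted p under 0.05 there were 2 members without the filter (Acsl4 and Lpcat3; 4.88% of all genes) and 0 to 1 with a library left out (1.71% to 11.9% of all genes). The 1 was Gpx4 without normal cys 1, Lpcat3 without normal cys 2, and Acsl4 without normal cys 4 or low cys 3. Groups did not overlap for 2 members with total counts in place of TMM (Gpx3 and Acsl4; 8.25% of all genes), and for 0 to 2 with a library left out (9.01% to 19.7% of all genes). Total counts moved the median log2 fold change of all genes by 0.145, so each member's estimate there holds that shift.

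Signs turned for 3 genes. Gpx1 was -0.0058 with DESeq2, -0.0018 with its size factors, -0.013 without the filter, and from -0.21 to 0.20 with a library left out (-0.039 without low cys 3). Gpx2 ran from -0.55 to 0.14 and Aifm2 from -0.093 to 0.23 (-0.0098 without normal cys 1) with a library left out. Gpx3 (0.23 to 0.70), Gpx4 (-0.65 to -0.26), Gpx7 (-0.89 to -0.49), Acsl4 (0.54 to 0.92) and Lpcat3 (-0.49 to -0.24) kept their sign. The cause of these shifts was not tested. Over the other tools, scalings and filters the estimates ran from -0.013 to 0.13 for Gpx1, -0.26 to -0.036 for Gpx2 (-0.036 with limma-voom, -0.10 with total counts), 0.50 to 0.68 for Gpx3, -0.48 to -0.31 for Gpx4, -0.74 to -0.57 for Gpx7, 0.72 to 0.88 for Acsl4, -0.42 to -0.25 for Lpcat3 and 0.042 to 0.19 for Aifm2. Gpx7 fell out when 10 counts were asked of every library, which left 7 members tested. Adding Gpx2-ps1 to Gpx2, tried only after seeing the data, left -0.24. Without the filter, the log2 fold change of Gpx8 was 0.46. Without division by length, the Gpx3 share was 0.403% on the normal and 0.750% on the low cys diet, and the Gpx4 share on the low cys diet 26.8%, as the lengths themselves differ.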
